A study of Saccharomyces cerevisiae with 11 samples.

Results

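The comparison described here is that of yeast cells that make a nuclear-targeted huntingtin fragment with a long glutamine tract, Htt-103Q-NLS, and cells that make the same fragment with a short tract, Htt-25Q-NLS, both with an empty vector. The members were the 3 libraries of Htt-103Q-NLS cells (Htt103Q [V] a, b and c) and the 2 of Htt-25Q-NLS cells (Htt25Q [V] a and b), 5 of the 11 libraries of the series, chosen by their labels, and 6321 of 7126 genes passed a filter on low counts and were tested. Both strains were W303 integrants of a GFP-tagged fragment under the *GAL* promoter with the marker *LEU2* (*GAL-NLS-Htt25Q-GFP::LEU2* and *GAL-NLS-Htt103Q-GFP::LEU2*). Both carried the same empty vector. The Htt fragment was induced with 2% galactose for 4 h at 25 °C, after growth in raffinose, and RNA was taken from 3 OD600 units of cells. Each Htt length came from 1 integrant strain, so that strain and Htt length cannot be told apart. The letters name separate clones, and another Htt25Q [V] library, which the authors removed for its rRNA, was not analysed here. The other 6 libraries carried plasmid-borne *SLX5* in place of the empty vector. They entered the low-count filter, the scaling and the shared dispersion behind the tests below, and also the principal components. Beyond that they are used for the same contrast in separate cultures.

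Huntingtin is the protein of Huntington's disease, in which a CAG repeat that encodes glutamine is expanded and the amino-terminal fragment aggregates. Budding yeast has no huntingtin, and is used as a host in which the fragment can be switched on. Growing yeast cells direct most of their transcription toward making proteins, and shift it between growth, storage and stress genes with their nutrient and stress signals. Messenger RNA levels therefore show many pathways side by side, among them those of translation, the nucleus, membranes, mitochondria and nutrient uptake that are described here.

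The 5 libraries held between 19942070 and 23838732 estimated counts. Genes of rRNA took 2.21% and 0.364% of them in Htt25Q [V] a and b and 1.02%, 0.467% and 0.958% in Htt103Q [V] a, b and c, so their share did not separate the groups. *GAL1*, a galactokinase gene induced by galactose, as is the *GAL* promoter that drives Htt, was at 7226 and 7954 CPM against 1626, 2188 and 3276. Here CPM stands for counts-per-million scaled by the trimmed mean of M-values (TMM), and values are given as Htt25Q [V] a and b against Htt103Q [V] a, b and c. *GAL1* was thus lower in every Htt103Q [V] library, and the part of the lower galactose response in the results below was not tested. The transcript of the Htt fragment itself was not quantified here. *LEU2*, the marker of both integrants, was at 1133 and 1116 CPM against 7878, 8139 and 8472, far higher in each Htt103Q [V] library. The receptor gene *STE3*, which marks alpha cells, was at 229 and 190.2 CPM against 102, 108 and 133, while *STE2*, which marks a cells, was at 1.94 and 2.25 against 5.77, 5.67 and 5.33. The alpha-cell marker was thus the higher one in both strains. On the first principal component of all 11 libraries, which held 65.8% of the variance, Htt25Q [V] a and b lay at -22.9 and -26.0 and Htt103Q [V] a, b and c at 37.1, 30.8 and 21.3. Of the 3 libraries of its group, Htt103Q [V] c lay nearest to the Htt25Q [V] libraries on it.

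At an adjusted p under 0.05 in edgeR's quasi-likelihood test 3589 of the 6321 genes were called, or 56.8%, with 27.3% of all tested genes higher and 29.5% lower in Htt103Q [V]. The groups did not overlap for 70.5% of the tested genes. The median log2 fold change over all of them was -0.02. The counts of each list stand beside these shares, and the lists were not tested against other genes. In each of the 4 groups of the series the library of clone letter a had the highest rRNA share, and without these 4 libraries, which leaves 1 library of Htt25Q [V], 2198 genes were called. The values after a gene below are its log2 fold change in Htt103Q [V] relative to Htt25Q [V], its standard error (SE) and its adjusted p from this test over all tested genes. Of 56 lists, which hold 1809 tested genes, the members together were 525 higher and 536 lower, 29.02% and 29.63%, close to the shares of all genes, and single lists lay on either side.

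**Figure D1:**
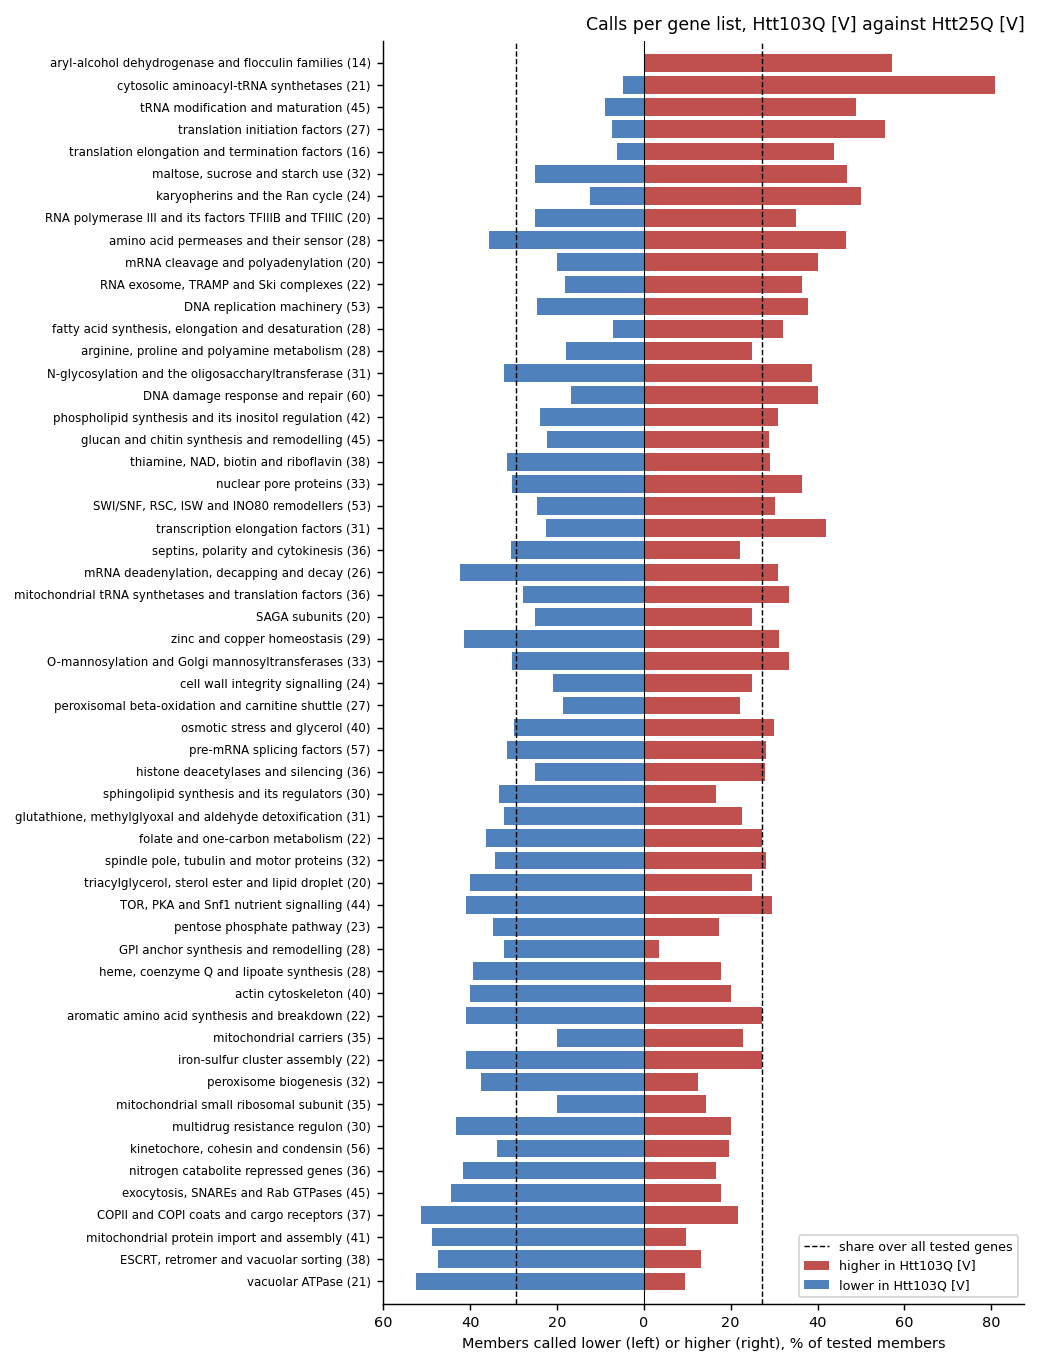
Calls per gene list in Htt103Q [V] against Htt25Q [V]. Each bar gives the percentage of the tested members of a list (their number in parentheses) called higher (red, right) or lower (blue, left) at an adjusted p under 0.05, the dashed lines give the shares over all tested genes (27.3% higher, 29.5% lower), and lists are ordered by their median log2 fold change, from the vacuolar ATPase at -0.28 to the aryl-alcohol dehydrogenase and flocculin families at 0.63.

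Among the large rises were those of several enzymes. *RRT5*, a gene of unknown function, was at 4.40 and 1.70 CPM in Htt25Q [V] a and b and 76.9, 60.9 and 54.1 in Htt103Q [V] a, b and c (4.42, SE 0.37, adjusted p = 1.38e-05). *SDH9*, a paralog of the gene of the succinate dehydrogenase flavoprotein, was at 6.09 and 6.07 CPM against 50.9, 41.6 and 26.4 (2.70, SE 0.38, adjusted p = 0.000172). *RRT5* and *SDH9* were named among the largest rises, by a rule that took only genes whose groups did not overlap. For each, Htt103Q [V] c was the lowest of the 3 Htt103Q [V] libraries. *ARG82*, the inositol polyphosphate multikinase, also acts in the control of arginine genes. It was at 15.9 and 10.8 CPM against 62.3, 54.5 and 48.9 (2.06, SE 0.20, adjusted p = 2.53e-05). *RNR3*, a minor large subunit of ribonucleotide reductase that is known to respond to DNA damage, was at 4.71 and 6.07 CPM against 31.9, 27.8 and 26.5 (2.41, SE 0.21, adjusted p = 1.38e-05). *IMD2*, of guanine nucleotide synthesis, had 1.54, *ATF2*, an alcohol acetyltransferase, 1.70, *AYT1*, another acetyltransferase, 1.86, and *BTN2*, which encodes a protein of the sorting of misfolded proteins, 1.63.

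Lower in Htt103Q [V] was *TDH1*, an isozyme of glyceraldehyde-3-phosphate dehydrogenase that is used outside of rapid growth, at 353 and 569 CPM in Htt25Q [V] a and b and 87.4, 111 and 180.0 in Htt103Q [V] a, b and c (-1.87, SE 0.27, adjusted p = 0.000213). *PYK2*, the minor pyruvate kinase, was at 90.7 and 96.9 CPM against 16.0, 22.5 and 35.7 (-1.93, SE 0.27, adjusted p = 0.000167). Both genes were lowest in Htt103Q [V] a and nearest to Htt25Q [V] in Htt103Q [V] c. *GPG1*, a proposed subunit of a G protein of glucose sensing, had -2.003 (SE 0.15, adjusted p = 8.99e-06). *DDR48* and *DDR2*, named for their response to DNA damage, had -1.96 and -1.63. *SPI1*, a cell wall protein of weak acid resistance, had -1.68, and *STF2*, of desiccation tolerance, -1.77. *YPT53*, a Rab GTPase of endocytosis, was at 33.0 and 41.1 CPM against 7.95, 12.3 and 15.7 (-1.63, SE 0.23, adjusted p = 0.000193).

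**Figure D2:**
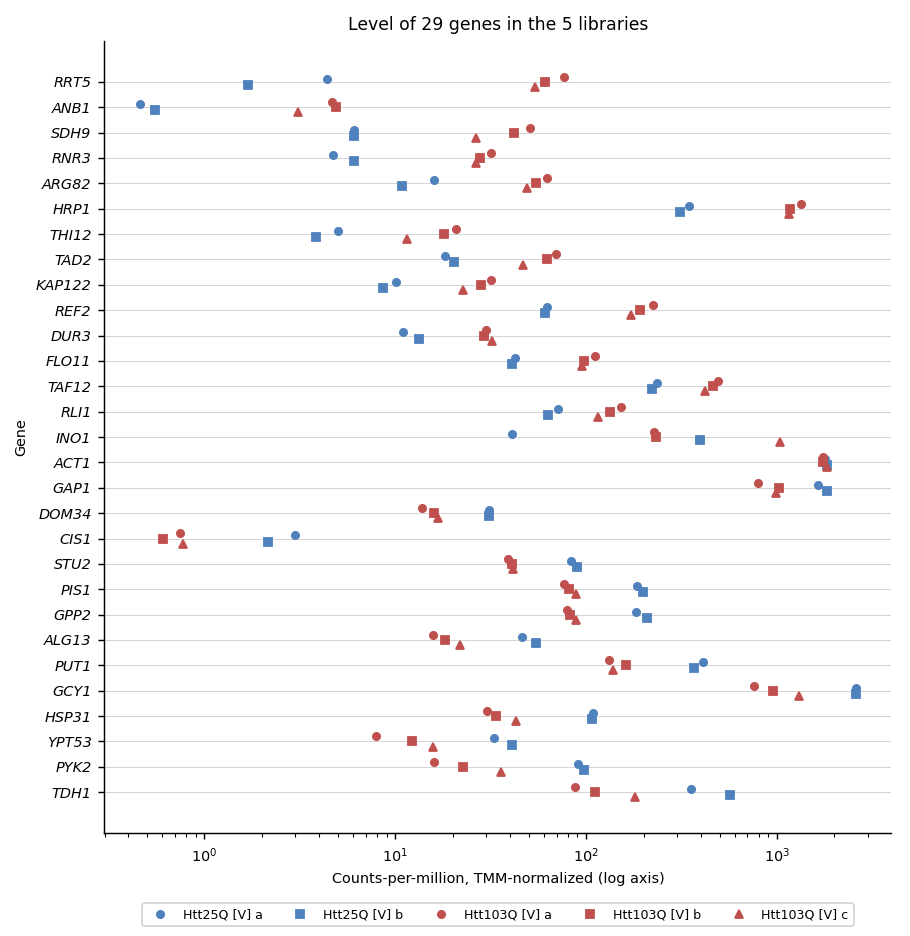
Levels of 29 named genes in the 5 libraries, some of them named by a rule that took only genes whose groups do not overlap. Points give TMM-normalized counts-per-million on a log axis for Htt25Q [V] (blue; a circle, b square) and Htt103Q [V] (red; a circle, b square, c triangle). The groups do not overlap for any of these genes except *INO1*, where Htt25Q [V] b lies above Htt103Q [V] a and b, and *ACT1*, at 1778 and 1838 CPM against 1737, 1742 and 1835.

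Aminoacyl-tRNA synthetases attach each amino acid to its tRNA, and most of their cytosolic genes rose. Of 21 genes of the cytosolic enzymes 17 rose and 1 fell, with a median log2 fold change of 0.32. *FRS1*, a subunit of the phenylalanine enzyme, was at 322 and 326 CPM in Htt25Q [V] a and b and 619, 583 and 539 in Htt103Q [V] a, b and c (0.84, SE 0.11, adjusted p = 0.000132). *GLN4*, the glutamine enzyme, was at 132 and 129 CPM against 201, 199 and 182 (0.57, SE 0.08, adjusted p = 0.000128). No library of one group reached the other for either gene. *THS1*, of threonine, and *GRS1*, of glycine, had 0.49 and 0.47, while *DPS1*, of aspartate, had -0.31 (SE 0.08, adjusted p = 0.00549), and was not called without Htt25Q [V] a. Over the 3 Htt103Q [V] libraries the list's median stood 0.36, 0.34 and 0.24 above the Htt25Q [V] mean, on the log2 scale. The share that rose was 80.95%, where 27.3% of all genes did.

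The Gcn4 element core TGACTC was sought in these promoters because synthetase genes are known targets of the regulator Gcn4. It was in 9 of 21 promoters on either strand, or 42.9%, and in 8.02% of 5770 promoters of coding genes. A promoter here is the window of 300 bases from 250 before to 50 after the start of the start codon, in build R64 of RefSeq. Of the genes with the element 8 rose, and of those without it 9 rose and 1 fell. *GCN4* itself had 0.11 (SE 0.08, adjusted p = 0.248). The window of *THS1* (chrIX:212249-212548, plus strand) is shown as that of the called gene with the smallest adjusted p and the element, in capitals, before the start codon, where its first base lies 204 bases before the start codon.
THS1: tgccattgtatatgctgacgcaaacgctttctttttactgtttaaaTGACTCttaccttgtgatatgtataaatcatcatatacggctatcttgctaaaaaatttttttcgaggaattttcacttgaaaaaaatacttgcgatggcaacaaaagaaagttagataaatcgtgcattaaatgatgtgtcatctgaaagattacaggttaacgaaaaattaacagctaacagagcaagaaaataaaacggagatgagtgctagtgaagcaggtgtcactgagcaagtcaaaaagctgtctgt

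Of 45 genes of tRNA modification and maturation, 22 rose and 4 fell, with a median of 0.27. Counts depended on single libraries, with 14 higher without Htt25Q [V] b. *TAD2*, a subunit of the enzyme that makes inosine at the wobble base, was at 18.1 and 20.2 CPM in Htt25Q [V] a and b and 69.2, 62.7 and 46.8 in Htt103Q [V] a, b and c (1.64, SE 0.16, adjusted p = 2.85e-05). *KTI12*, which acts with the Elongator complex of wobble uridine modification, was at 87.0 and 83.9 CPM against 208, 180.1 and 175 (1.14, SE 0.11, adjusted p = 2.7e-05). Each of these was higher in all Htt103Q [V] libraries. The subunits of the splicing endonuclease of tRNAs parted, with *SEN2* at 0.82 (SE 0.11, adjusted p = 0.000112) and *SEN54* at -1.03 (SE 0.14, adjusted p = 0.000132). *MOD5*, which modifies the base next to the anticodon, fell (-0.71, SE 0.08, adjusted p = 7e-05). Of 20 genes of RNA polymerase III, which transcribes tRNAs, and its factors, 7 rose and 5 fell (median 0.18). The largest subunit *RPO31* had 0.93 (SE 0.14, adjusted p = 0.000238) and the TFIIIB subunit *BRF1* 0.77 (SE 0.09, adjusted p = 8.3e-05), and *MAF1*, the repressor of this polymerase, fell (-0.60, SE 0.12, adjusted p = 0.00156). With a library left out the list had 3 lower without Htt25Q [V] a and 3 lower without Htt25Q [V] b.

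Initiation factors bring the ribosome to the start codon, and 15 of their 27 genes rose and 2 fell (median 0.25), with 1 lower without Htt25Q [V] b or Htt103Q [V] b. *GCD6*, a subunit of the exchange factor eIF2B, was at 68.1 and 69.3 CPM in Htt25Q [V] a and b and 133, 120.2 and 110.2 in Htt103Q [V] a, b and c (0.82, SE 0.10, adjusted p = 8.64e-05). The eIF3 subunit *TIF34* had 0.63 (SE 0.07, adjusted p = 6.99e-05) and *NIP1*, another, 0.59. The pair of eIF4G genes parted, in that *TIF4631* rose (0.54, SE 0.09, adjusted p = 0.000389) and *TIF4632* fell (-0.64, SE 0.12, adjusted p = 0.00107). Of 16 elongation and termination genes 7 rose and 1 fell (median 0.23). The list had 4 higher without Htt25Q [V] b. *RLI1*, an ATPase that recycles ribosomes, was at 71.3 and 63.3 CPM in Htt25Q [V] a and b and 152, 134 and 115 in Htt103Q [V] a, b and c (0.99, SE 0.13, adjusted p = 0.000117). *DOM34*, which rescues stalled ribosomes, was at 30.9 and 30.9 CPM against 13.7, 15.9 and 16.7 (-1.001, SE 0.12, adjusted p = 7.05e-05). *TEF2*, a gene of elongation factor 1 alpha, had 0.38 (SE 0.08, adjusted p = 0.00241), whereas its near-identical copy *TEF1* had -0.02 (SE 0.10, adjusted p = 0.9), or 0.0044 under the size factors of DESeq2, and reads of this pair may be divided between the copies with error. *ANB1*, the anaerobic gene of eIF5A, was at 0.46 and 0.55 CPM against 4.66, 4.88 and 3.07 (3.03, SE 0.44, adjusted p = 0.000221), and its aerobic copy *HYP2*, which shares most of its sequence, was listed at 0 in every library, so that the value of *ANB1* is uncertain.

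**Figure D3:**
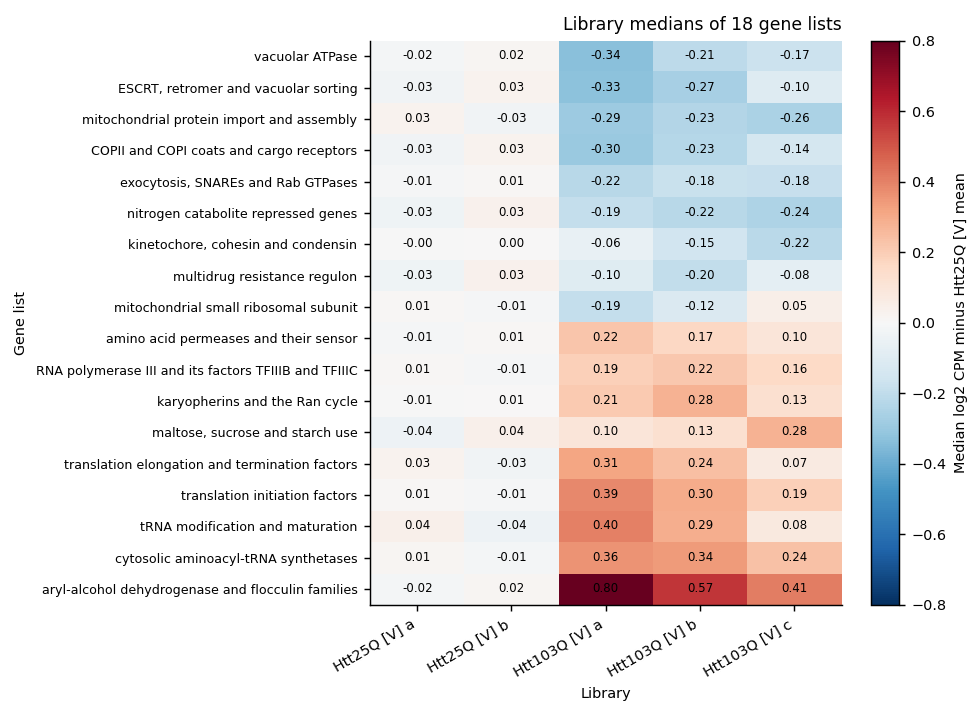
Library medians of the 9 lists with the lowest and the 9 with the highest median fold change. Each cell gives the median over a list's tested genes of the log2 CPM in that library minus the mean of the Htt25Q [V] libraries, so that Htt25Q [V] a and b mirror each other by construction. The 3 Htt103Q [V] libraries have the same sign in every row but that of the mitochondrial small ribosomal subunit, where c is at 0.05, and c lies nearest to 0 for the lists of translation.

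Cleavage and polyadenylation set the 3′ ends of mRNAs, and the largest rise of its list was that of an RNA-binding factor. *HRP1*, of cleavage factor IB, was at 345 and 311 CPM in Htt25Q [V] a and b and 1340.2, 1169.8 and 1150.0 in Htt103Q [V] a, b and c (1.90, SE 0.13, adjusted p = 6.87e-06). *PCF11*, of cleavage factor IA, was at 47.7 and 47.6 CPM against 99.7, 104 and 112 (1.14, SE 0.09, adjusted p = 1.35e-05). *RNA14*, also of cleavage factor IA, was at 94.4 and 98.1 CPM against 167, 179 and 169 (0.83, SE 0.09, adjusted p = 6.14e-05). All Htt103Q [V] libraries lay above both Htt25Q [V] libraries for these genes. *REF2*, of the associated phosphatase module, had 1.67 (SE 0.16, adjusted p = 2.48e-05), and *PTI1* of the same module, named after its value was seen, 0.86. In all 8 of 20 members rose and 4 fell (median 0.14). Those that fell included *SYC1*, -1.30 (SE 0.19, adjusted p = 0.000221), and *CFT2*, -0.54 (SE 0.07, adjusted p = 0.000132), of the cleavage and polyadenylation factor.

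For the RNA exosome and its helpers, which trim and degrade nuclear RNAs, 8 of 22 members rose and 4 fell (median 0.14). There were 2 lower without Htt25Q [V] a. The median was 0.22 without Htt25Q [V] a, 0.059 without Htt25Q [V] b and 0.23 without Htt103Q [V] c. *AIR2*, of the TRAMP complex, had 1.05 (SE 0.13, adjusted p = 0.000107) and *LRP1*, a partner of the nuclear exosome, 0.91 (SE 0.10, adjusted p = 6.42e-05), while the core subunit *RRP45* fell (-0.60, SE 0.08, adjusted p = 0.000108) and so did *SKI3* of the cytoplasmic Ski complex (-0.43). Genes of mRNA deadenylation and decapping were 8 higher and 11 lower of 26. When 1 library was left out, members were 4 higher without Htt25Q [V] b and 7 lower without Htt25Q [V] a. *CDC39*, the scaffold of the Ccr4-Not complex, rose (0.96, SE 0.11, adjusted p = 7.41e-05), and *XRN1*, the cytoplasmic 5′ exonuclease, fell (-0.60, SE 0.09, adjusted p = 0.000241), as did the decapping activator *EDC2* (-0.65). Splicing factors were close to the background, with 16 higher and 18 lower of 57 and a median of -0.02. Single libraries bore on this, with 10 higher without Htt25Q [V] a. Their largest called rise was that of the U1 protein *MUD1*, 0.91 (SE 0.12, adjusted p = 0.000132), and *PRP28*, a helicase of the first steps of spliceosome activation, had -0.75 (SE 0.09, adjusted p = 8.96e-05).

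Karyopherins carry proteins and RNAs through the nuclear pore, and 12 of 24 genes of karyopherins and of the Ran cycle rose and 3 fell (median 0.19). *KAP122* was at 10.03 and 8.62 CPM in Htt25Q [V] a and b and 31.9, 28.1 and 22.7 in Htt103Q [V] a, b and c (1.57, SE 0.21, adjusted p = 0.000125). *LOS1*, which exports tRNAs, had 0.82 (SE 0.11, adjusted p = 0.00015), *KAP120* 0.78, and *KAP104*, the importer of mRNA-binding proteins such as Hrp1, 0.68. The importin beta gene *KAP95*, which acts on classical localization signals, had -0.30 (SE 0.07, adjusted p = 0.00269), and *GSP2*, the minor Ran gene, -0.59 (SE 0.10, adjusted p = 0.000637). The pore itself was divided, with 12 of 33 genes higher, 10 lower and a median of 0.03. *GLE2* (1.04, SE 0.10, adjusted p = 2.92e-05) and *NUP85* (0.93) rose and *NUP53* (-0.90, SE 0.11, adjusted p = 9.28e-05) fell.

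Chromatin complexes held genes of both directions. SAGA, a coactivator that acetylates histones, had 5 members higher and 5 lower of 20 (median 0.00). Leaving out libraries gave 3 lower without Htt25Q [V] a. *TAF12*, a histone-fold subunit that SAGA shares with TFIID, was at 234 and 220.3 CPM in Htt25Q [V] a and b and 488, 462 and 421 in Htt103Q [V] a, b and c (1.01, SE 0.11, adjusted p = 6.16e-05). Its fellow histone-fold subunit *TAF9* was at 95.3 and 97.9 CPM against 61.6, 63.9 and 59.4 (-0.65, SE 0.07, adjusted p = 4.22e-05). The former lay higher and the latter lower in every Htt103Q [V] library. *AHC1*, of the related ADA complex, had 1.24 (SE 0.14, adjusted p = 7e-05). Among 53 genes of the nucleosome remodellers 16 rose and 13 fell (median 0.03). Members were 7 higher without Htt25Q [V] b. Within SWI/SNF, *SWI1* rose (1.12, SE 0.12, adjusted p = 4.51e-05) and *SNF6* fell (-0.60, SE 0.09, adjusted p = 0.000219), and within INO80 *ARP8* fell (-0.71, SE 0.10, adjusted p = 0.000189).

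Deacetylases and silencing genes were 10 higher and 9 lower of 36 (median -0.04). Counts depended on single libraries, with 5 higher without Htt25Q [V] a and 5 lower without Htt25Q [V] a. *HDA1*, a histone deacetylase, had -0.76 (SE 0.10, adjusted p = 0.000114), and *TUP1*, the general corepressor, 0.50 (SE 0.07, adjusted p = 0.000234), where its partner *CYC8* had 0.05 (SE 0.10, adjusted p = 0.663), or -0.0053 without Htt25Q [V] b. Of 31 elongation genes 13 rose and 7 fell (median 0.02). With a library left out the list had 4 lower without Htt25Q [V] b. The Paf1 complex gene *CTR9* rose (0.74, SE 0.09, adjusted p = 7.3e-05), as did *RTF1* (0.62) and the histone chaperone gene *SPT16* (0.53, SE 0.07, adjusted p = 0.000139). *ELF1*, a small elongation factor, fell (-0.95, SE 0.10, adjusted p = 4.27e-05).

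Of 53 replication genes 20 rose and 13 fell (median 0.14). The list had 6 lower without Htt25Q [V] a and 8 lower without Htt103Q [V] b. *MCM5*, of the helicase that unwinds DNA, was at 37.2 and 39.1 CPM in Htt25Q [V] a and b and 70.7, 65.4 and 65.4 in Htt103Q [V] a, b and c (0.82, SE 0.07, adjusted p = 1.6e-05). The DNA ligase gene *CDC9* was at 58.1 and 57.6 CPM against 99.7, 91.3 and 90.2 (0.70, SE 0.08, adjusted p = 4.95e-05). *ORC5*, of the origin recognition complex, was at 32.8 and 33.8 CPM against 17.5, 19.5 and 18.3 (-0.86, SE 0.10, adjusted p = 6.49e-05), and *ORC4* of the same complex had -0.82 (SE 0.12, adjusted p = 0.000168). The groups did not overlap for any of these genes, with MCM5 and CDC9 higher and ORC5 lower.

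The element ACGCGT, known as MCB and bound by the MBF factor of G1/S genes, was in 25 of 53 replication promoters, or 47.2%, and in 3.14% of all, read on both strands. Genes with it were 10 higher and 2 lower (median 0.19), and those without it 10 higher and 11 lower (median 0.10). The window of *CDC9* (chrIV:167205-167504, minus strand), chosen by the same rule as *THS1*, shows it in capitals, with its first base 125 bases before the start codon.
CDC9: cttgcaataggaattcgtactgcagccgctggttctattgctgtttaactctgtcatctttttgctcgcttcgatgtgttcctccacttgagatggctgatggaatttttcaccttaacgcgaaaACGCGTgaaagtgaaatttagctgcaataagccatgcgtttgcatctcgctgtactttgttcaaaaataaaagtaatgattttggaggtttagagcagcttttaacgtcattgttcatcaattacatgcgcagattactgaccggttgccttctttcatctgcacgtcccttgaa

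Of 60 genes of DNA damage and repair 24 rose and 10 fell (median 0.10). There were 5 lower without Htt25Q [V] a and 6 lower without Htt103Q [V] b. Besides *RNR3*, *RAD55*, of recombination, had 1.59 (SE 0.21, adjusted p = 0.000125), *RMI1*, a partner of the topoisomerase Top3, 0.94 (SE 0.12, adjusted p = 8.6e-05), and *RAD54*, a recombination ATPase, 0.72. *RAD10*, an endonuclease of nucleotide excision repair, fell (-1.06, SE 0.13, adjusted p = 8.82e-05). Of the other subunits of ribonucleotide reductase, *RNR4*, named after its value was seen, rose (0.42, SE 0.10, adjusted p = 0.00446), while *RNR1* was at 0.07 (SE 0.21, adjusted p = 0.79), or -0.18 without Htt103Q [V] a, and *RNR2*, named in the same way, at -0.17 (SE 0.07, adjusted p = 0.057). *HUG1*, a small gene strongly induced by DNA damage and also named after its value was seen, was at 0.20 and 0.30 CPM against 0.99, 0.47 and 0.41 (adjusted p = 0.0573).

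Of 56 genes of the kinetochore, cohesin and condensin, 11 rose and 19 fell (median -0.17). When 1 library was left out, members were 12 lower without Htt25Q [V] b. Those that fell included *CSE4*, the centromeric histone H3, at 85.5 and 84.1 CPM in Htt25Q [V] a and b and 40.8, 44.4 and 47.4 in Htt103Q [V] a, b and c (-0.94, SE 0.10, adjusted p = 5.41e-05). *DAD4*, of the ring that binds microtubules, had -0.74 (SE 0.08, adjusted p = 4.51e-05). The cohesin genes *SMC3* (0.65, SE 0.09, adjusted p = 0.000136) and *SMC1* (0.60, SE 0.09, adjusted p = 0.000198) rose. The microtubule motors and regulators of the spindle gave 9 higher and 11 lower of 32 genes. Single libraries bore on this, with 5 higher without Htt25Q [V] a. *STU2*, a microtubule polymerase, was at 82.8 and 89.5 CPM in Htt25Q [V] a and b and 38.9, 40.8 and 41.4 in Htt103Q [V] a, b and c (-1.09, SE 0.11, adjusted p = 2.85e-05). The kinesin genes *KIP1* (-0.98, SE 0.13, adjusted p = 0.000112) and *CIN8* (-0.82, SE 0.10, adjusted p = 0.000103), which push the spindle poles apart, fell, and the spindle pole genes *SPC110* (0.52) and *NUD1* (0.60) rose.

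Genes of the actin cytoskeleton were 8 higher and 16 lower of 40 (median -0.10). Leaving out libraries gave 5 higher without Htt25Q [V] a, 3 higher without Htt25Q [V] b and 10 lower without Htt25Q [V] b. *ACT1* itself had -0.03 (SE 0.07, adjusted p = 0.725), or 0.0014 with a stricter filter on low counts, the capping protein gene *CAP2* -0.83 (SE 0.12, adjusted p = 0.000236) and *ARC15*, of the Arp2/3 complex, -0.70 (SE 0.07, adjusted p = 4.07e-05). *BNR1*, a formin that nucleates actin cables from the bud neck, rose (1.07, SE 0.16, adjusted p = 0.000283). Septin and polarity genes were 8 higher and 11 lower of 36. Members were 5 higher without Htt25Q [V] a and 4 higher without Htt25Q [V] b. The septin gene *CDC10* fell (-0.90, SE 0.11, adjusted p = 9.58e-05), and *CYK3*, of cytokinesis, rose (1.04, SE 0.12, adjusted p = 6.17e-05).

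Genes of membrane traffic had shares of lower members above that of all genes, 29.5%, in each of the 4 lists that follow, and these shares were not tested. The coats COPII and COPI, which carry cargo between the endoplasmic reticulum and the Golgi, and their cargo receptors had 19 of 37 genes lower and 8 higher (median -0.23). Counts depended on single libraries, with 12 lower without Htt25Q [V] b. *ERV25*, a receptor of the p24 family, was at 315 and 306 CPM in Htt25Q [V] a and b and 184, 200.1 and 197 in Htt103Q [V] a, b and c (-0.68, SE 0.09, adjusted p = 0.00011). *ERP5* of the same family had -0.77 (SE 0.11, adjusted p = 0.000189). The coat genes *SEC31* (0.46, SE 0.07, adjusted p = 0.000391) and *RET2* (0.61, SE 0.10, adjusted p = 0.000378) rose. For exocytosis, SNAREs, which fuse membranes, and Rab GTPases, 20 of 45 genes fell and 8 rose (median -0.21). With a library left out the list had 4 higher without Htt25Q [V] a and 4 higher without Htt25Q [V] b. The Golgi and endosome SNARE genes *GOS1* (-0.85, SE 0.08, adjusted p = 1.72e-05), *TLG1* (-1.07, SE 0.15, adjusted p = 0.000172) and *VTI1* (-0.90, SE 0.13, adjusted p = 0.000178) fell, and *UFE1*, the SNARE of the endoplasmic reticulum, rose (0.71, SE 0.13, adjusted p = 0.000765).

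The vacuolar ATPase pumps protons into the vacuole, and 11 of 21 genes of its subunits and assembly factors fell and 2 rose, with the lowest median of the 56 lists, -0.28. The list had 7 lower without Htt25Q [V] a and 5 lower without Htt25Q [V] b. *VMA1*, the catalytic subunit, was at 412 and 467 CPM in Htt25Q [V] a and b and 250.01, 281 and 316 in Htt103Q [V] a, b and c (-0.64, SE 0.10, adjusted p = 0.000251). *STV1*, the Golgi isoform of the membrane subunit, was at 212 and 206 CPM against 132, 142 and 166 (-0.51, SE 0.10, adjusted p = 0.0012). *VMA16*, of the proton-carrying ring, was at 147 and 135 CPM against 204, 199.5 and 191 (0.49, SE 0.09, adjusted p = 0.000644). The groups did not overlap for any of these, with the first pair lower and *VMA16* higher. Sorting to the vacuole by ESCRT, retromer and their partners had 18 of 38 genes lower and 5 higher (median -0.26). There were 3 higher without Htt25Q [V] a and 9 lower without Htt25Q [V] b. Without Htt25Q [V] b its median was -0.17. *VPS24* (-0.57, SE 0.08, adjusted p = 0.000153), of ESCRT-III, *VPS41* (-0.57, SE 0.10, adjusted p = 0.000572), of vacuole tethering, and *VPS30* (-0.80, SE 0.15, adjusted p = 0.000943), of a phosphatidylinositol kinase complex, fell. *VPS20*, another ESCRT-III gene, rose (0.41, SE 0.08, adjusted p = 0.00176). The list's median in the 3 Htt103Q [V] libraries was -0.33, -0.27 and -0.10, lowest in a. Another member, *DID2*, was listed at 0 in every library and was not tested.

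In N-glycosylation, where a sugar chain is built on a lipid and moved to the protein, 12 of 31 genes rose and 10 fell (median 0.10). When 1 library was left out, members were 7 higher without Htt25Q [V] b and 7 higher without Htt103Q [V] b. Its median was 0.067 without Htt25Q [V] a and 0.045 without Htt103Q [V] a. *ALG13*, of the enzyme that adds the second sugar, was at 46.3 and 54.7 CPM in Htt25Q [V] a and b and 15.8, 18.2 and 21.9 in Htt103Q [V] a, b and c (-1.44, SE 0.13, adjusted p = 1.46e-05). *OST3*, an oxidoreductase subunit of the oligosaccharyltransferase, was at 131 and 135 CPM against 66.8, 74.4 and 80.5 (-0.84, SE 0.09, adjusted p = 3.86e-05). *GTB1*, of glucosidase II, had -1.22 (SE 0.14, adjusted p = 6.59e-05) and *DPM1*, which makes the mannose donor, -0.86 (SE 0.12, adjusted p = 0.00015). Each of these 4 genes fell by more than any member of the list rose. Mannosyltransferases were 11 higher and 10 lower of 33. Single libraries bore on this, with 6 lower without Htt25Q [V] b. *MNN9* (0.84, SE 0.11, adjusted p = 0.000108), *PMT5* (0.88, SE 0.11, adjusted p = 9.19e-05) and *KTR5* (0.77, SE 0.08, adjusted p = 3.99e-05) rose, and *MNT4* (-1.04, SE 0.18, adjusted p = 0.000518) fell. Of 28 genes of glycosylphosphatidylinositol (GPI) anchors, which hold wall proteins at the membrane, 9 fell and 1 rose (median -0.09). Leaving out libraries gave 4 lower without Htt25Q [V] a, 4 lower without Htt25Q [V] b and 4 lower without Htt103Q [V] a. *GWT1*, which acylates the anchor's inositol, had -0.68 (SE 0.14, adjusted p = 0.00195).

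Genes of wall glucan and chitin were 13 higher and 10 lower of 45 (median 0.05). Members were 6 lower without Htt25Q [V] b. *GNA1*, of the chitin precursor, fell (-0.69, SE 0.08, adjusted p = 8.55e-05), as did the glucanase gene *SCW4* (-0.62, SE 0.08, adjusted p = 0.000107), and the chitinase gene *CTS2* rose (0.80, SE 0.11, adjusted p = 0.000132). In the cell wall integrity pathway, where Pkc1 drives a kinase cascade, 6 of 24 genes rose and 5 fell. *MKK1*, a kinase of the cascade, had 0.93 (SE 0.09, adjusted p = 2.99e-05) and *MSG5*, a phosphatase of its last kinase, 0.80 (SE 0.11, adjusted p = 0.000132), while *SDP1*, another phosphatase, had -1.08 (SE 0.14, adjusted p = 0.000107).

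Phospholipid genes were 13 higher and 10 lower of 42 (median 0.08). Counts depended on single libraries, with 8 higher without Htt25Q [V] a. *PIS1*, which joins inositol to the lipid, was at 185 and 198 CPM in Htt25Q [V] a and b and 76.4, 81.4 and 88.5 in Htt103Q [V] a, b and c (-1.22, SE 0.10, adjusted p = 1.13e-05). *HNM1*, the choline permease, was at 100.2 and 135 CPM against 241, 231 and 241 (1.01, SE 0.15, adjusted p = 0.000244). *INO1*, the inositol synthase that marks the inositol response, was at 41.1 and 395 CPM against 226, 232 and 1043 (1.196, SE 1.04, adjusted p = 0.345). The Htt25Q [V] libraries differed more from each other than the group means did, with Htt25Q [V] b above Htt103Q [V] a and b, and no difference between the groups was detectable. *OPI1*, the repressor of these genes, had 0.71 (SE 0.11, adjusted p = 0.000283) and *CDS1*, of CDP-diacylglycerol synthesis, 0.89 (SE 0.17, adjusted p = 0.000964), both named after their values were seen. In fatty acid synthesis 9 of 28 genes rose and 2 fell (median 0.11). With a library left out the list had 4 lower without Htt103Q [V] c. *ACC1*, acetyl-CoA carboxylase, had 0.46 (SE 0.10, adjusted p = 0.0019), *ACS2*, acetyl-CoA synthetase, 0.55 (SE 0.07, adjusted p = 8.43e-05), and *SPT23*, a membrane-bound activator of the desaturase gene *OLE1*, 0.80 (SE 0.10, adjusted p = 7.94e-05). *OLE1* had -0.25 (SE 0.15, adjusted p = 0.189). *CEM1*, a mitochondrial enzyme, fell (-1.19, SE 0.10, adjusted p = 1.46e-05).

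Sphingolipid genes were 5 higher and 10 lower of 30 (median -0.04). The list had 3 higher without Htt25Q [V] a, 6 lower without Htt25Q [V] a, 2 lower without Htt25Q [V] b, 4 lower without Htt103Q [V] a and 3 lower without Htt103Q [V] b. The long-chain base kinase genes *LCB4* (0.82, SE 0.11, adjusted p = 0.000131) and *LCB5* (0.58, SE 0.09, adjusted p = 0.000381) both rose, and *LIP1*, of ceramide synthase, fell (-0.65, SE 0.08, adjusted p = 7.7e-05). Of 20 genes of stored lipids 5 rose and 8 fell, with the sterol ester genes *ARE1* (0.85, SE 0.16, adjusted p = 0.000953), of synthesis, and *YEH1* (0.95, SE 0.21, adjusted p = 0.00269), of breakdown, both higher. Peroxisome biogenesis was 4 higher and 12 lower of 32 (median -0.12), with *PEX2* (-0.87, SE 0.11, adjusted p = 9.19e-05) and *PEX25* (0.76, SE 0.12, adjusted p = 0.000309). The higher count was 1 without Htt25Q [V] b. The median was -0.19 without Htt25Q [V] a. Genes of beta-oxidation were 6 higher and 5 lower of 27. There were 3 lower without Htt25Q [V] b. The peroxisomal catalase gene *CTA1* rose (1.12, SE 0.16, adjusted p = 0.000172) and *MDH3*, the peroxisomal malate dehydrogenase, fell (-0.78, SE 0.10, adjusted p = 0.0001).

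Mitochondrial import, which brings nuclear-encoded proteins through the outer and inner membranes, had 20 of 41 genes lower and 4 higher (median -0.23). When 1 library was left out, members were 13 lower without Htt25Q [V] a. *MIM1*, which inserts outer membrane proteins, was at 28.3 and 30.5 CPM in Htt25Q [V] a and b and 17.6, 15.3 and 15.3 in Htt103Q [V] a, b and c (-0.87, SE 0.10, adjusted p = 7e-05). *MGR2*, of the inner membrane translocase, was at 61.5 and 58.3 CPM against 37.1, 40.9 and 40.002 (-0.61, SE 0.08, adjusted p = 0.000107). *TIM54*, of the carrier translocase, was at 238 and 219.8 CPM against 353, 340.4 and 318 (0.56, SE 0.07, adjusted p = 0.000107). *MIM1* and *MGR2* were lower and *TIM54* higher in every Htt103Q [V] library. Small subunit proteins of the mitochondrial ribosome were mostly not called, 23 of 35, with 5 higher and 7 lower. Their median was -0.13, or -0.05 without Htt103Q [V] a. Single libraries bore on this, with 2 higher without Htt25Q [V] b, 4 lower without Htt25Q [V] a, 4 lower without Htt25Q [V] b, 4 lower without Htt103Q [V] a, 4 lower without Htt103Q [V] b and 13 lower without Htt103Q [V] c. *RSM25* had -0.58 (SE 0.11, adjusted p = 0.00111) and *MRPS18* 0.51 (SE 0.07, adjusted p = 0.00019). Mitochondrial tRNA synthetases and translation factors were divided, with 12 of 36 higher and 10 lower (median 0.01). The tryptophan enzyme *MSW1* fell (-1.09, SE 0.14, adjusted p = 0.000107) and the arginine enzyme *MSR1* rose (0.73, SE 0.07, adjusted p = 3.38e-05). The difference between the cytosolic and the mitochondrial list was not tested.

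Carriers of the inner membrane gave 8 higher and 7 lower of 35. Leaving out libraries gave 5 higher without Htt25Q [V] a, 4 higher without Htt25Q [V] b and 5 higher without Htt103Q [V] a. *AGC1*, the aspartate-glutamate carrier, rose (0.93, SE 0.11, adjusted p = 7.05e-05) and *POR1*, the outer membrane porin, fell (-0.66, SE 0.08, adjusted p = 6.34e-05). Of 28 genes of heme, coenzyme Q and lipoate 5 rose and 11 fell (median -0.10). The heme oxygenase gene *HMX1* was at 273 and 260.4 CPM in Htt25Q [V] a and b and 608, 621 and 608 in Htt103Q [V] a, b and c (1.199, SE 0.12, adjusted p = 3.5e-05). *HEM13*, an oxygen-requiring step of heme synthesis, had 0.87 (SE 0.09, adjusted p = 4.25e-05), and *CAT5*, of coenzyme Q, -0.87 (SE 0.11, adjusted p = 8.43e-05). Genes of iron-sulfur clusters were 6 higher and 9 lower of 22. Members were 3 higher without Htt25Q [V] b. *JAC1*, a J-protein of cluster transfer, was at 56.9 and 62.2 CPM against 28.4, 26.4 and 31.9 (-1.04, SE 0.09, adjusted p = 1.38e-05), and *ATM1*, the exporter, had 0.71 (SE 0.09, adjusted p = 0.000112).

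Genes under nitrogen catabolite repression are held off while good nitrogen sources last, and 15 of 36 fell and 6 rose (median -0.20, or -0.13 without Htt25Q [V] b). *PUT1*, proline oxidase, was at 412 and 366 CPM in Htt25Q [V] a and b and 132, 162 and 138 in Htt103Q [V] a, b and c (-1.43, SE 0.10, adjusted p = 6.87e-06). *GAP1*, the general amino acid permease, was at 1639 and 1824 CPM against 790.4, 1025 and 992 (-0.89, SE 0.14, adjusted p = 0.000392). *DUR3*, the urea transporter, was at 10.999 and 13.3 CPM against 29.96, 29.2 and 32.1 (1.32, SE 0.14, adjusted p = 4.08e-05). The first pair was lower in all Htt103Q [V] libraries and the last was higher. *PUT4*, the proline permease, named after its value was seen, had -0.99 (SE 0.18, adjusted p = 0.000748), *CPS1*, a vacuolar carboxypeptidase, -0.73 (SE 0.09, adjusted p = 9.11e-05), and *GLT1*, glutamate synthase, 1.23 (SE 0.14, adjusted p = 6.16e-05).

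The GATA element GATAAG, through which this repression is known to act, was in 17 of 36 of these promoters, or 47.2%, and in 14.7% of all, read on both strands. Genes with it were 1 higher and 7 lower (median -0.25), and those without it 5 higher and 8 lower (median -0.04). The window of *PUT1* (chrXII:424936-425235, plus strand), chosen by the same rule, has the element on the other strand, so that the capitals read as its reverse complement, with the first base 205 bases before the start codon.
PUT1: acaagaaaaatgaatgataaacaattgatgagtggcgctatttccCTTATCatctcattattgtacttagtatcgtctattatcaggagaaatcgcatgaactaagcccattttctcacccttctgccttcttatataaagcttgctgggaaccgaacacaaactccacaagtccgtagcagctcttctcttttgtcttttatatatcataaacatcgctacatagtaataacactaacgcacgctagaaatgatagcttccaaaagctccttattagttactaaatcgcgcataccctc

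Amino acid permeases and their sensor were 13 higher and 10 lower of 28 (median 0.16). Counts depended on single libraries, with 8 higher without Htt25Q [V] b. *ALP1*, a basic amino acid permease, had 1.89 (SE 0.22, adjusted p = 7.28e-05), *GNP1*, of glutamine uptake, 0.75 (SE 0.09, adjusted p = 6.39e-05), and *TAT2*, of tryptophan uptake, -0.88 (SE 0.13, adjusted p = 0.000237).

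Among arginine, proline and polyamine genes 7 of 28 rose and 5 fell. With a library left out the list had 4 higher without Htt25Q [V] b, 3 lower without Htt25Q [V] a, 3 lower without Htt25Q [V] b, 2 lower without Htt103Q [V] a and 2 lower without Htt103Q [V] b. Apart from *ARG82*, *PRO2*, of proline synthesis, had -0.56 (SE 0.09, adjusted p = 0.000472). *ARO9* (-0.92, SE 0.11, adjusted p = 7.12e-05) and *ARO10* (-0.54, SE 0.09, adjusted p = 0.000429), of breakdown, and their activator *ARO80* (-1.05, SE 0.14, adjusted p = 0.000112) fell, while *TRP2* (0.58, SE 0.12, adjusted p = 0.00164) and *TRP4* (0.41, SE 0.07, adjusted p = 0.000554), of tryptophan synthesis, rose. In all 6 of 22 rose and 9 fell. One-carbon genes were 6 higher and 8 lower of 22. The list had 5 lower without Htt25Q [V] a. *SER3*, the first enzyme of serine synthesis, was at 85.7 and 82.7 CPM in Htt25Q [V] a and b and 248, 236 and 221 in Htt103Q [V] a, b and c (1.48, SE 0.09, adjusted p = 2.22e-06), and *MET13*, methylenetetrahydrofolate reductase, had 1.21 (SE 0.17, adjusted p = 0.000161).

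Several thiamine genes rose. *THI4*, of the thiazole ring, was at 6.09 and 6.496 CPM in Htt25Q [V] a and b and 15.9, 12.9 and 19.2 in Htt103Q [V] a, b and c (1.34, SE 0.17, adjusted p = 9.42e-05). *THI12*, of the pyrimidine ring, was at 5.01 and 3.86 CPM against 20.8, 18.003 and 11.5 (1.92, SE 0.31, adjusted p = 0.000417). *THI2*, an activator of thiamine genes, had 1.08 (SE 0.14, adjusted p = 0.000112), and the transporter gene *THI7*, named after its value was seen, 1.11. The *THI5*, *THI11*, *THI12* and *THI13* copies are nearly identical, so a value of any one is uncertain, and *THI11* at 11.97 and 10.6 CPM against 16.5, 12.9 and 11.5 was not called. *NMA2*, of NAD synthesis, had -0.97 (SE 0.11, adjusted p = 5.94e-05). Over the whole list 11 of 38 rose and 12 fell. Zinc and copper genes were 9 higher and 12 lower of 29. There were 5 lower without Htt25Q [V] b. *ZPS1*, a wall protein of low zinc, had 1.60 (SE 0.23, adjusted p = 0.000178) and *ZRT1*, the zinc importer, 0.45 (SE 0.10, adjusted p = 0.00288), while *CCS1*, the copper chaperone of superoxide dismutase, had -0.72 (SE 0.07, adjusted p = 2.07e-05).

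Of 32 genes for the use of maltose, sucrose and starch 15 rose and 8 fell, with a median of 0.20. *MAL11*, a maltose permease, was at 34.5 and 38.1 CPM in Htt25Q [V] a and b and 76.4, 72.6 and 79.5 in Htt103Q [V] a, b and c (1.07, SE 0.09, adjusted p = 1.35e-05). *MAL33*, an activator of maltose genes, was at 30.9 and 34.4 CPM against 69.6, 83.0 and 76.4 (1.22, SE 0.12, adjusted p = 2.48e-05). *IMA5*, an isomaltase, was at 6.70 and 7.05 CPM against 20.1, 23.0 and 21.4 (1.64, SE 0.23, adjusted p = 0.00019). For each the Htt103Q [V] libraries were all higher, which the rule that named *IMA5* as a large rise required. Members of the *MAL* and *IMA* families share long stretches of sequence, so single values are uncertain. *SUC2*, invertase, had 0.48 (SE 0.20, adjusted p = 0.0553). The glucokinase gene *GLK1* fell (-1.23, SE 0.21, adjusted p = 0.000629), as did *SIP2*, a subunit of the Snf1 kinase (-0.99, SE 0.14, adjusted p = 0.000161), whereas *HXK2*, the main hexokinase of glucose growth, named after its value was seen, had 0.09 (SE 0.07, adjusted p = 0.34). In the pentose phosphate pathway 4 of 23 rose and 8 fell. *SOL4*, a gluconolactonase, fell (-1.23, SE 0.17, adjusted p = 0.00015), and *GND1*, the main phosphogluconate dehydrogenase, rose (0.70, SE 0.11, adjusted p = 0.000339).

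The osmotic list was divided, with 12 higher and 12 lower of 40, and held lower genes of glycerol. *GPD1*, glycerol-3-phosphate dehydrogenase, was at 1445 and 1404 CPM in Htt25Q [V] a and b and 599.5, 824 and 1055 in Htt103Q [V] a, b and c (-0.79, SE 0.18, adjusted p = 0.00303). *GPP2*, glycerol phosphatase, was at 182 and 207 CPM against 79.2, 82.0 and 88.9 (-1.22, SE 0.10, adjusted p = 1.38e-05). *GCY1*, a glycerol dehydrogenase that is also a galactose-responsive gene, was at 2579 and 2583 CPM against 756, 958 and 1305 (-1.36, SE 0.17, adjusted p = 8.61e-05). All 3 were lower in every Htt103Q [V] library, lowest in a and highest in c, as was *GAL1*, and its part in these values was not tested. *CNA1*, of calcineurin, rose (1.10, SE 0.13, adjusted p = 6.7e-05), as did the sodium exchanger gene *NHA1* (0.50). Multidrug resistance genes were 13 lower and 6 higher of 30 (median -0.14). When 1 library was left out, members were 3 higher without Htt25Q [V] a, 7 lower without Htt25Q [V] b and 8 lower without Htt103Q [V] b. Without Htt25Q [V] b the median was -0.085. *PDR5*, the main drug pump, was at 172 and 171 CPM against 126, 115 and 121 (-0.51, SE 0.09, adjusted p = 0.000925), and *AQR1*, a transporter of weak acids, had -1.06 (SE 0.12, adjusted p = 7.28e-05). *CIS1*, at 2.97 and 2.165 CPM against 0.74, 0.61 and 0.77, had the largest fall (-1.85, SE 0.31, adjusted p = 0.000533) and *ICT1*, an acyltransferase, rose (0.72, SE 0.10, adjusted p = 0.000171).

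The drug response element CCGCGG, bound by Pdr1 and Pdr3, was in 2 of 30 promoters of this list on either strand and in 1.18% of all. Bases further than 250 before the start codon were not searched. The 2 promoters with the element are therefore only those with it in this window. They were the promoters of *CIS1* and of the regulator gene *PDR3* itself, both of which fell, and of the genes without it there 6 rose and 11 fell. *PDR3*, named after its value was seen, was at 30.6 and 28.6 CPM in Htt25Q [V] and at 18.2, 19.6 and 23.4 CPM in Htt103Q [V], without overlap (log2 fold change -0.54, SE 0.11, edgeR adjusted p = 0.0021). The window of *CIS1* (chrXII:822543-822842, minus strand) has the element, in capitals, 241 bases before the start codon. For the same kind of reading, CATGTG, the core bound by Ino2 and Ino4, was in 13 of 42 phospholipid promoters and 6.60% of all. Genes with CATGTG were 4 higher and 2 lower (median 0.15), and those without it 9 higher and 8 lower (median 0.03). AGGGG, the stress response element, was in 9 of 40 promoters of the osmotic list and 21.6% of all. Genes with AGGGG were 1 higher and 5 lower (median -0.41), and those without it 11 higher and 7 lower (median 0.04). These differences were not tested. None of the 6 elements contains another, and a match is only a match of letters.
CIS1: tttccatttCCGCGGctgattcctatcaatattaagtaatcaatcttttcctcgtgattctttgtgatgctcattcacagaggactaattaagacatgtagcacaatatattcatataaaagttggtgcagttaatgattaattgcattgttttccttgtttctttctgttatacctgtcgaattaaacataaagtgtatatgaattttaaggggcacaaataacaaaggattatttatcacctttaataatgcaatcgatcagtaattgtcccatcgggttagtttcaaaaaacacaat

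Detoxification genes were 7 higher and 10 lower of 31. Single libraries bore on this, with 3 higher without Htt25Q [V] a. *HSP31*, a methylglyoxalase and chaperone, was at 108 and 107 CPM in Htt25Q [V] a and b and 30.3, 33.5 and 42.8 in Htt103Q [V] a, b and c (-1.60, SE 0.13, adjusted p = 1.22e-05). *ZTA1*, a quinone reductase, had -1.55 (SE 0.14, adjusted p = 2.04e-05) and *GLO2*, a glyoxalase, -0.94 (SE 0.11, adjusted p = 7.94e-05). The regulators of the oxidative response *YAP1* (0.84, SE 0.12, adjusted p = 0.000162) and *SKN7* (0.62, SE 0.09, adjusted p = 0.000275) rose. Flocculins, which make cells stick together, and aryl-alcohol dehydrogenases had 8 of 14 genes higher and 0 lower by edgeR's test, with the highest median of the 56 lists, 0.63. At an unadjusted p under 0.05 the lower count was also 0, as it was by DESeq2. In the same contrast with plasmid-borne *SLX5*, 6 members rose and 2 fell (median 0.38). *FLO11* was at 42.5 and 41.0 CPM in Htt25Q [V] a and b and 111, 96.9 and 94.9 in Htt103Q [V] a, b and c (1.28, SE 0.11, adjusted p = 1.72e-05), *FLO5* had 0.96 (SE 0.12, adjusted p = 8.43e-05), *FIG2* 1.32 (SE 0.17, adjusted p = 9.71e-05) and *AAD10* 0.73 (SE 0.11, adjusted p = 0.000248). Copies within both families share reads. Nutrient signalling by TOR, protein kinase A and Snf1 was 13 higher and 18 lower of 44 (median -0.08). Leaving out libraries gave 10 lower without Htt25Q [V] b. Of the catalytic subunits of protein kinase A, *TPK3* rose (0.70, SE 0.10, adjusted p = 0.000225) and *TPK2*, named after its value was seen, fell (-0.80, SE 0.18, adjusted p = 0.00304). *SLM4*, of the vacuolar complex that anchors TOR, fell (-0.84, SE 0.11, adjusted p = 0.000107). *PMA1*, the plasma membrane proton pump, had -0.43 (SE 0.07, adjusted p = 0.000606).

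Yeast has glutamine tracts of its own, and the genes that encode them were looked at because of the Htt tract, after other results were seen. In build R64, 51 tested genes hold at least 10 CAA or CAG codons in a row, and of these 18 rose, 15 fell and 18 were not called (median 0.04), where coding genes with shorter runs had a median of -0.03. Members were 7 lower without Htt25Q [V] b. The longest tracts are mostly in regulators of transcription. *SNF5*, of SWI/SNF, has 37 such codons and had 0.22 (SE 0.09, adjusted p = 0.0456), and was not called without Htt25Q [V] a, Htt25Q [V] b, Htt103Q [V] a or Htt103Q [V] b. *CYC8* has 31 codons and was not called. *MSS11*, an activator of *FLO11*, has 30 codons and had -0.52 (SE 0.13, adjusted p = 0.00614). *GAL11*, of Mediator, has 23 codons and had 0.55 (SE 0.07, adjusted p = 9.11e-05), and *TAF12*, also with 23, and *PCF11*, with 20, rose as described above. Of like length, *ANP1*, with 22 codons (0.19, SE 0.10, adjusted p = 0.132), and *HRK1*, with 20 (0.03, SE 0.09, adjusted p = 0.83), were not called. *SNF5*, *CYC8*, *MSS11*, *GAL11*, *ANP1* and *HRK1* were named after their values were seen. Also picked here in that way were *TAF12* and *PCF11*, which the rule had named in their lists. The tracts of *SNF5*, *CYC8*, *MSS11*, *GAL11*, *TAF12* and *PCF11* are given in the coding direction with CAG in capitals and CAA in lower case.
SNF5 (chrII:780360-780470, plus strand): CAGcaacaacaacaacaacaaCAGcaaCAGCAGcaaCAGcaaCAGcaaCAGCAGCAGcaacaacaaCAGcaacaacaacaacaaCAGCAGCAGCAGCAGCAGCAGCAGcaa
CYC8 (chrII:464010-464102, minus strand): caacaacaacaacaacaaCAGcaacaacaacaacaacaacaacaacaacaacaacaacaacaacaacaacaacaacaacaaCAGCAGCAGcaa
MSS11 (chrXIII:588582-588671, minus strand): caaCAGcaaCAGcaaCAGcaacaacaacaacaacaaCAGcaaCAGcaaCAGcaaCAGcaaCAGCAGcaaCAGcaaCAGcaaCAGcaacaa
GAL11 (chrXV:236959-237027, plus strand): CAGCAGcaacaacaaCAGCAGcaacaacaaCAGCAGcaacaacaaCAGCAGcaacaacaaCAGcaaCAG
TAF12 (chrIV:747497-747565, plus strand): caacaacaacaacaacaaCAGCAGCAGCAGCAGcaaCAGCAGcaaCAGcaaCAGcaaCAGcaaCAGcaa
PCF11 (chrIV:923048-923107, minus strand): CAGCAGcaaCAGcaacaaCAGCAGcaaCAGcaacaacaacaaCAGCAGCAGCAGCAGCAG

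The level in Htt103Q [V] relative to Htt25Q [V] differed by coding length, a pattern also sought after the data were seen. Tested coding genes were divided by length into 5 classes of like size. In class 1 (78 to 636 bases) 14.5% were higher and 38.3% lower, with a median of -0.17. In class 4 (1473 to 2127 bases) 37.0% were higher and 26.2% lower, with a median of 0.08. Classes 2 and 3 lay between, with medians of -0.08 and 0.02. In class 5, the longest genes (2130 to 14733 bases), the median was 0.03, below that of class 4, with 34.4% higher and 26.3% lower. The Htt103Q [V] libraries a, b and c were at -0.14, -0.16 and -0.19 in class 1, at 0.07, 0.07 and 0.09 in class 4 and at 0.03, 0.02 and 0.06 in class 5. Length differs between the lists as well. The median coding length was 771 bases in the vacuolar ATPase list and 573 in mitochondrial import, both lower, and 1824 in the cytosolic synthetases and 2796 in the karyopherins, both higher, against 1236 bases over all tested genes with a coding length. Other lists went the opposite way, with 1602 bases in the ESCRT list, 1497 in the nitrogen list and 2151 in the multidrug list, which had medians below 0, and 1218 in the initiation factors, with a median above 0. Of the 26 lists with a median above 0 the length was above 1236 bases in 23, and of the 30 with a median below 0 in 15. The part of length in the difference of any list was not tested.

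**Figure D4:**
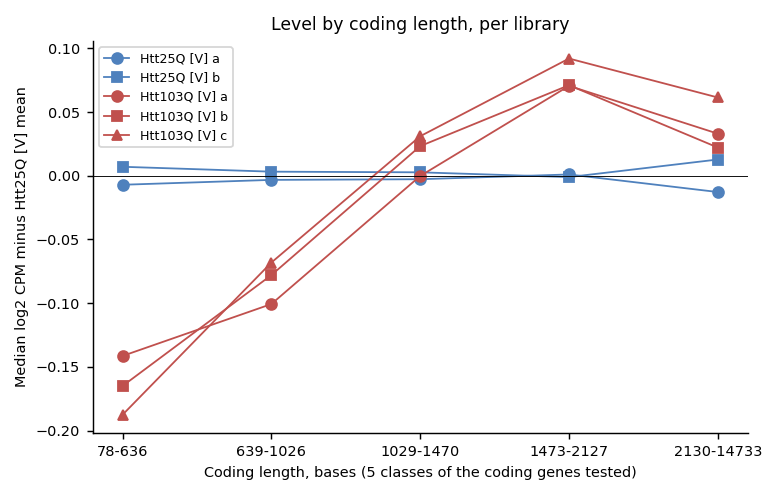
Level by coding length in each library. Points give the median over the genes of each of 5 classes of coding length (bases, as in R64) of the log2 CPM minus the Htt25Q [V] mean, for Htt25Q [V] (blue) and Htt103Q [V] (red), and Htt25Q [V] a and b mirror each other by construction. The Htt103Q [V] medians run from -0.14 to -0.19 in class 1 to 0.07 to 0.09 in class 4, and lie at 0.02 to 0.06 in class 5.

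Over the 16 nuclear chromosomes the median log2 fold change ran from -0.07 on chromosome IX to 0.04 on chromosome III. The Ty retrotransposons were looked at after their values were seen. Of 91 annotated gag and gag-pol genes 72 were tested, of which 39 fell and 1 rose, with a median of -0.64. Counts depended on single libraries, with 22 lower without Htt25Q [V] b. Their copies are nearly identical, so that reads are divided among them by the counting and the genes are not independent of each other. Open reading frames that RefSeq does not annotate as genes, 488 of those tested, had 20.9% called higher and 16.6% lower, against 27.3% and 29.5% of all genes (median 0.09). With a library left out the list had 55 higher without Htt25Q [V] b, 51 lower without Htt25Q [V] a and 51 lower without Htt25Q [V] b. Many of these overlap a known gene, and their reads cannot be assigned with certainty.

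*SLX5*, of a ubiquitin ligase that recognizes SUMO, was at 94.4 and 99.6 CPM against 53.9, 50.1 and 65.2 in the libraries with the empty vector, where it is expressed from the chromosome alone. The same contrast was made in the 6 cultures with plasmid-borne *SLX5*, 3 of each Htt length, which share the integrant strains but no library with the comparison above. There 53.5% of the tested genes were called. Of the 1725 genes that rose with the empty vector 1414 also rose (82.0% of them and 83.3% of those that rose with *SLX5*), and of the 1864 that fell 1442 also fell (77.4% and 85.8%). The shared strains give a shared direction to any strain difference, so these shares do not separate it from the Htt length. Both comparisons were also tested in the same fit with a shared dispersion, so their calls are not independent of each other. With *SLX5* the synthetases were 15 higher and 1 lower with a median of 0.32, the tRNA modification genes 26 higher and 4 lower with a median of 0.31, the vacuolar ATPase genes 2 higher and 9 lower with a median of -0.16 and the mitochondrial import genes 4 higher and 19 lower with a median of -0.19. *HRP1* had 1.78, *RNR3* 1.60, *PUT1* -1.16, *GPP2* -1.02 and *ALG13* -1.12, beside 1.90, 2.41, -1.43, -1.22 and -1.44 with the empty vector. The lists of translation elongation factors (4 higher and 2 lower with a median of 0.07) and of maltose use (13 higher and 9 lower with a median of 0.01) had medians of 0.23 and 0.20 with the vector, and the difference was not tested for lists. The difference between the comparisons was tested for single genes as an interaction, where 0 were called by edgeR's quasi-likelihood test, with 348 at an unadjusted p under 0.05 (5.51% of the tested genes). DESeq2 called 0, and 1 gene was called when the study's likelihood ratio procedure was followed.

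**Figure D5:**
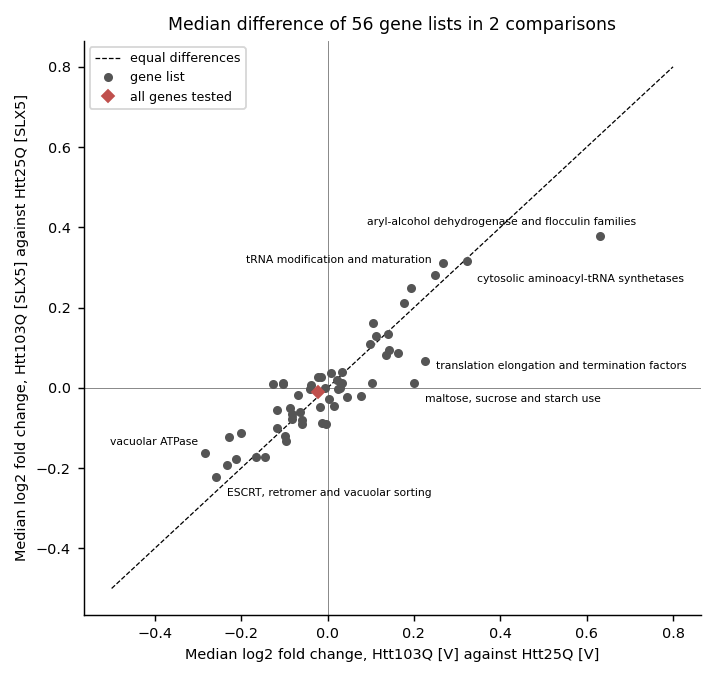
Median log2 fold change of the 56 lists with the empty vector (x axis) and with plasmid-borne *SLX5* (y axis). Each grey point is a list, the red diamond gives all tested genes (-0.02 and -0.01), and the dashed line marks equal differences. The synthetases lie at 0.32 and 0.32, the aryl-alcohol dehydrogenase and flocculin families at 0.63 and 0.38.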

How the data were processed

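Poly(A) or total RNA libraries of budding yeast cultures, 1 per clone, had been sequenced by the authors, and the kit is given differently in the labels and in the methods. Per the labels and the methods, reads were demultiplexed with bcl2fastq 2.17, trimmed with Trimmomatic 0.36, aligned with STAR 2.5.1 to transcripts of the S288C assembly EF4 and quantified per gene with RSEM 1.2.22. The deposited tables hold RSEM expected counts per gene, which the authors did not normalize. They also hold deposited TPM and FPKM values, of which the FPKM values were not used here and the TPM values entered no test. Totals were between 19942070 and 29440801 expected counts over the 11 libraries.

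Expected counts were rounded to whole numbers (16.5% of values were not whole), genes were filtered with filterByExpr over the 4 groups, and TMM-scaled counts were fitted in edgeR 4.0.16 (R 4.3.3) with a mean for each of the 4 groups, so that all 11 libraries share the dispersion (a biological coefficient of variation of 11.0%). Quasi-likelihood tests were adjusted by the Benjamini-Hochberg method over all 6321 genes and called at an adjusted p under 0.05. DESeq2 1.42.0 and the likelihood ratio procedure of the methods were alternatives, with other size factors, other filters, counts not rounded, the 5 libraries alone, a block for the clone letter, a stricter threshold and each library left out. The scripts were tested on simulated data. The comparison, the gene lists and the rule for named genes were chosen with earlier results of these data known.

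Named genes were, for each list, up to 4 called members with the smallest adjusted p and up to 2 called members of the minority direction; over all genes, the 40 largest changes in each direction (10 CPM or more on average, groups apart); and key enzymes or regulators whatever their value. Other genes are said to be named after their values were seen. The clones of each Htt length came from 1 strain. The p-values therefore measure the spread between cultures of these strains, those with *SLX5* included through the shared dispersion. Sequences and coding lengths come from RefSeq build R64, in which 6048 of 7126 gene IDs were found and the coding length equalled the deposited length in 6003 of 6013 genes. The deposited tables give no coordinates, so all coordinates are those of R64. Some genes that the rule names are not reported here.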

Additional observations from a re-analysis of the deposited data

How the results depend on the processing

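The 3589 calls became 3677 with DESeq2, 3577 with RLE size factors, 3229 among genes of at least 10 CPM on average, 3037 in a fit of the 5 libraries alone, 2597 at an adjusted p under 0.01, and between 2519 and 3850 when 1 library was left out, fewest without Htt25Q [V] b and most without Htt103Q [V] c. Without the a clones of all 4 groups 2198 genes were called, 1036 higher and 1162 lower. Deviations of same-lettered libraries from their group means correlated between -0.14 and 0.21, and those of libraries with different letters between -0.23 and 0.23. Deviations within a small group are tied to each other, so these ranges do not decide whether the clone letter pairs the libraries. With the letter as a replicate block 3500 genes were called, 1695 higher and 1805 lower, with plasmid-borne *SLX5* 3327, 1660 higher and 1667 lower, and for the interaction 0. The interaction had 1 call when the study's likelihood ratio procedure was followed. Of all values of named genes under the alternatives 5522 kept their direction and side of the threshold, 60 were no longer called, 15 were called only there and 10 changed sign, in 4 genes that were not called. *ACT1* had 0.0014 (at least 10 CPM on average). *RNR1* had -0.20 without the a clones and between -0.18 and 0.29 when 1 library was left out. *TEF1* had 0.0045 with DESeq2, 0.0044 with RLE, 0.016 (at least 10 CPM on average), 0.013 with the block and between -0.076 and 0.093 when 1 library was left out. *CYC8* had between -0.0053 and 0.11 when 1 library was left out. Of the list counts 1547 stayed within 1.5 times and 223 did not. The cause was not tested. Of 28 lists with a median at least 0.1 from 0 a left-out library moved the median by over 1.5 times in 8 and changed its sign in 0, and of the 28 with a median nearer to 0 it did either in 26, the sign in 12. Left-out libraries are named beside printed medians of the first kind and list counts of 4 or more. In classes 1 to 5 by mean CPM 24.0%, 21.99%, 26.7%, 32.0% and 31.7% of genes were called higher and 18.02%, 38.4%, 32.6%, 32.5% and 25.9% lower, and depth was not varied.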
